A study of Homo sapiens with 8 samples.

Results

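The genes described here encode the proteasome: its core and cap subunits, the chaperones that assemble them, its activators and its inhibitor. They were found by symbol, as every row of the deposited expression matrix named PSMA, PSMB, PSMC, PSMD, PSME, PSMF or PSMG followed by a number alone. This gave 46 members of the 16153 genes in the table, and 3 of them (PSMB8, PSMB9 and PSMB10) belong to the immunoproteasome and are reported apart. PSMA8 and PSMB11, subunits of the testis and of the thymus, are not analysed here. The 8 RNA libraries came from HMEC-1, an endothelial line of human skin microvessels made immortal by a viral large T antigen. The flight libraries were 3 from cells kept weightless aboard the International Space Station (space_microg) and 2 from cells flown alongside them in the same incubator but spun at 1 g in its centrifuge (space_1g). Ground controls were 3 libraries from cells kept in a matching facility in the home laboratory (ground). All cells grew on gelatin-coated coverslips in automated culture units with serum, hydrocortisone and EGF, the medium of each group was changed at the same times, and RNA was fixed in the units. The ground units had first travelled by airliner, and flight samples were returned to Earth before extraction. Only this line was used, and no label says that replicates came from separate cultures, so p-values reflect only how much these libraries vary, and that variation may be technical.

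The proteasome is the barrel-shaped protease that degrades proteins tagged with ubiquitin in the cytosol and nucleus. The 20S core stacks rings of alpha subunits, which gate the entrance, on rings of beta subunits, some of which cut peptide bonds. The 19S cap recognises ubiquitin, unfolds the substrate with a ring of ATPases and feeds it to the core. Interferon replaces the cutting subunits with those of the immunoproteasome, whose peptides are loaded onto MHC class I molecules, and endothelial cells are among the cells that do so.

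The libraries held 24248964 to 35388757 reads, and the members took 0.362% to 0.497% of them. Values are CPM scaled by TMM factors, and the members ranged from 61 reads (PSMA2) to 13470 reads (PSMD2) in a library. The libraries did not separate by group: on the component that held most variance (61.9%), space_1g replicate 1 and ground replicate 3 scored 60.7 and 64.7, against -31.1 to 1.51 for the others. The sum of 10 interferon-response genes was 2688 CPM in space_1g replicate 1 and 3121 CPM in ground replicate 3, against 284 to 1186 CPM in the other 6. All 10 endothelial markers on the list were in the table, with PECAM1 between 201 and 367 CPM and CDH5 between 268 and 579 CPM. Others were low, with CLDN5 at 0.263 to 9.93 CPM, ESAM at 4.55 to 8.01 CPM and EMCN at 1.04 to 21.5 CPM. Of markers of other cells, 0 of 4 epithelial, 1 of 4 leukocyte (CD14, 1.04 to 2.88 CPM), 3 of 6 fibroblast and 2 of 4 smooth muscle genes were in the table. The fibroblast genes were COL1A1 (90.5 to 228 CPM), COL1A2 (10.5 to 72.4 CPM) and PDGFRB (8.42 to 37.7 CPM).

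Most proteasome genes were lowest in ground replicate 2, and a partly different majority was highest in space_microg replicate 3. Summed over the 46 members, the level was 4488, 4365 and 5084 CPM in space_microg, 4645 and 4379 CPM in space_1g, and 4074, 3502 and 5018 CPM on the ground. Space_microg replicate 3 and ground replicate 3 were high, ground replicates 1 and 2 were the lowest, and space_microg and ground overlapped through ground replicate 3. The median member stood 0.24 above its own mean in space_microg replicate 3 and 0.31 below it in ground replicate 2 on the log2(CPM + 1) scale, while the median of all genes stayed within 0.01 of 0 in each library. Ground replicate 2 was the lowest of the 8 libraries for 33 of 46 members (71.7%), against 13.1% of all genes tested. Space_microg replicate 3 was the highest for 25 members (54.3%), against 16.3% of all genes, and ground replicate 3 for 13 members (28.3%), against 22.3%. Ground replicate 2 was the lowest and space_microg replicate 3 the highest in the same gene for 18 members (39.1%), against 3.32% of all genes. In ground replicate 3 the median member stood 0.16 above its own mean. With each library's trend on GC and length taken out, the median deviation was 0.15 in space_microg replicate 3 and -0.31 in ground replicate 2. It was then 0.19 in ground replicate 3, above that of space_microg replicate 3. The values are relative to the rest of a library and do not measure cell number. In such bulk libraries, less of these RNAs in some cells and in all cells cannot be told apart.

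**Figure D1:**
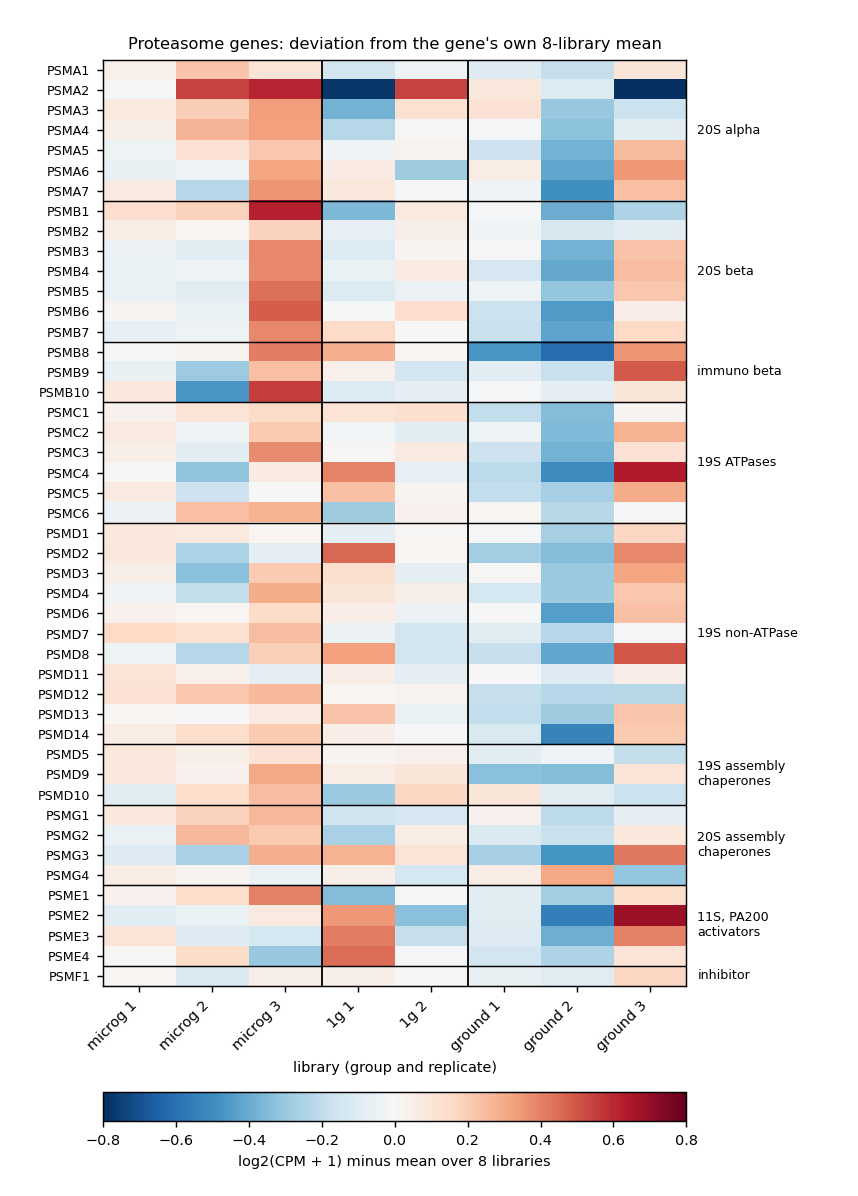
Each row is a proteasome gene, grouped by role, and each column a library; the colour is log2(CPM + 1) minus the gene's mean over the 8 libraries, and the scale stops at 0.8 in either direction, which PSMA2 passes. Most rows are blue in ground replicate 2, the lowest library for 33 of 46 members, and most are red in space_microg replicate 3, the highest for 25; these are not all the same genes.

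The libraries that stood apart did not lead in most members. They were the 2 highest of the 8 for 7 members (15.2%), against 23.6% of all genes: PSMD2, PSMD13, PSME2, PSME3, PSMC5, PSMD8 and PSMC4. They were the 2 lowest for PSMA2 and PSMD10 (4.35%, against 21.5% of all genes). PSMC4, an ATPase of the cap, had 82.8, 65.6 and 86.2 CPM in space_microg, 109 and 78.6 CPM in space_1g, and 71.3, 57.7 and 129 CPM on the ground. PSMD2, a scaffold of the cap that binds ubiquitin-like proteins, had 336, 265 and 301 CPM in space_microg, 435 and 319 CPM in space_1g, and 261, 249 and 413 CPM on the ground. In both genes the first 1 g library and the third ground library were the highest, and every pair of groups overlapped. PSMG4, a core chaperone, ran the other way on the ground, with 15.4, 18.4 and 11.7 CPM, where replicate 2 was the highest and replicate 3 the lowest of all 8 libraries.

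Weightless flight was compared with the ground to ask what spaceflight without artificial gravity does, and most proteasome genes were somewhat higher in space_microg without any passing the test. In space_microg 38 of 46 members were higher than on the ground (82.6%, against 47% of all genes tested), and the median log2 difference was 0.15, against -0.02 over all genes. Differences ran from -0.11 (PSMB9) to 0.68 (PSMA2). Limma with Benjamini-Hochberg adjustment called 0 of 46 members and 0% of the 16103 genes tested at an adjusted p of 0.05, and edgeR also called 0. At an unadjusted p under 0.05, limma found 3 members higher (6.52%, against 2.05% of all genes) and 0 lower (2.27% of all genes). It found 696 such genes in all, and edgeR 741.

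The groups did not overlap for 8 members, all higher in space_microg (17.4%, against 7.88% of all genes), and for 0 members in the other direction (6.53% of all genes). They were the alpha subunit PSMA4, the beta subunits PSMB1 and PSMB2, the ATPase PSMC1, the lid subunits PSMD7 and PSMD12, and the chaperones PSMD5 and PSMG1. PSMD12 (Rpn5), a subunit of the lid of the cap, had the smallest p. Its levels were 74.8, 80.3 and 83.0 CPM in space_microg, 69.7 and 70.2 CPM in space_1g, and 60.5, 58.8 and 59.1 CPM on the ground. Each flight library lay above each ground library, each weightless one lay above each at 1 g, and the ground replicates had an SD of 0.889 CPM (n = 3). The difference from the ground was 0.41 ± 0.12 in space_microg (SE; limma adjusted p = 0.866, unadjusted 0.00941) and 0.23 ± 0.14 in space_1g (adjusted p = 1.00).

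PSMD12 lies on chromosome 17 from 67337916 to 67366627 in GRCh38. Its promoter window, from 250 bases before to 50 after the start, is shown because PSMD12 had the smallest p and because its window holds a match to the antioxidant response element, the motif bound by NFE2L1 and NFE2L2, transcription factors known to raise proteasome genes. The sequence is RefSeq's on GRCh38.p14, minus strand, chr17:67366528-67366827, read 5′ to 3′ with the match in capitals.
PSMD12: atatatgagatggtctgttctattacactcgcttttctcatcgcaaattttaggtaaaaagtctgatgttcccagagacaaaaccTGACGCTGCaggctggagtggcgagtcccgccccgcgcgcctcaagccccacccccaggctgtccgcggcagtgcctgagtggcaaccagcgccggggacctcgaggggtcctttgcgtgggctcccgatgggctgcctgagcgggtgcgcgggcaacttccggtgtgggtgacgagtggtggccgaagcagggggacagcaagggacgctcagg
The motif was searched as TGACNNNGC on both strands. Of the 46 members, 40 matched the promoter table, in 49 windows, and 6 (PSMA7, PSMB1, PSMB6, PSMB7, PSMD4 and PSMG3) had no entry. The motif was in 15 member windows (30.6%), against 13.3% of all 35116 windows, and the letters CCAAT were in 19 (38.8%), against 34.6%. Among the other members whose groups did not overlap, PSMA4 (not in all of its windows), PSMD5 and PSMG1 held the first motif. PSMB2, PSMC1 and PSMD7 did not. A match is a description of letters, not a site.

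Of the alpha subunits, 7 of 7 were higher in space_microg than on the ground (median 0.19). PSMA4 had 129, 150.4 and 157 CPM in space_microg, 106 and 126 CPM in space_1g, and 123, 99.2 and 117 CPM on the ground. Its weightless libraries were the 3 highest, and the 1 g and ground ranges overlapped. The difference was 0.36 ± 0.15 from the ground (unadjusted p = 0.0441, limma adjusted p = 0.866) and 0.32 ± 0.17 from space_1g (adjusted p = 0.912). PSMA2 gave the widest difference, 0.68 ± 0.40, at levels of 4.24, 6.68 and 7.08 CPM in space_microg, 2.08 and 6.68 CPM in space_1g, and 4.62, 3.90 and 1.87 CPM on the ground. The groups overlapped, and 100% of its coding bases are shared with a read-through gene on the same strand, so its reads are uncertain.

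Of the constitutive beta subunits, 7 of 7 were higher in space_microg than on the ground (median 0.19). PSMB1, a structural beta subunit, had 126, 130.5 and 177 CPM in space_microg, 89.0 and 121 CPM in space_1g, and 113, 86.6 and 96.4 CPM on the ground. Its weightless libraries were the 3 highest, and replicate 3 stood well above the rest. The difference was 0.53 ± 0.19 from the ground (unadjusted p = 0.0236, limma adjusted p = 0.866) and 0.46 ± 0.22 from space_1g, the smallest p of any member in that comparison (unadjusted 0.0667, adjusted p = 0.912). PSMB2, also structural, had 75.7, 73.6 and 82.7 CPM in space_microg, against 71.3, 66.3 and 68.2 CPM on the ground, a narrow gap between groups.

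The catalytic beta subunits were high mainly in a single weightless library. PSMB5, the chymotrypsin-like subunit, had 93.3, 91.0 and 132 CPM in space_microg, 89.8 and 93.8 CPM in space_1g, and 94.1, 77.9 and 113 CPM on the ground. PSMB6, the caspase-like subunit, had 118, 112 and 163 CPM in space_microg, 114 and 128 CPM in space_1g, and 103, 84.3 and 120.4 CPM on the ground. PSMB7, the trypsin-like subunit, had 95.1, 97.0 and 131 CPM in space_microg, 111 and 100.2 CPM in space_1g, and 88.3, 74.3 and 112 CPM on the ground. In each of the 3 genes space_microg replicate 3 was the highest library and ground replicate 2 the lowest, and the flight and ground groups overlapped. Space_microg differed from the ground by 0.14 ± 0.20 for PSMB5, 0.34 ± 0.19 for PSMB6 and 0.24 ± 0.19 for PSMB7. Space_1g differed from the ground by -0.03 ± 0.22, 0.25 ± 0.22 and 0.23 ± 0.22 for the same genes in that order (limma adjusted p from 0.866 to 1.00).

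**Figure D2:**
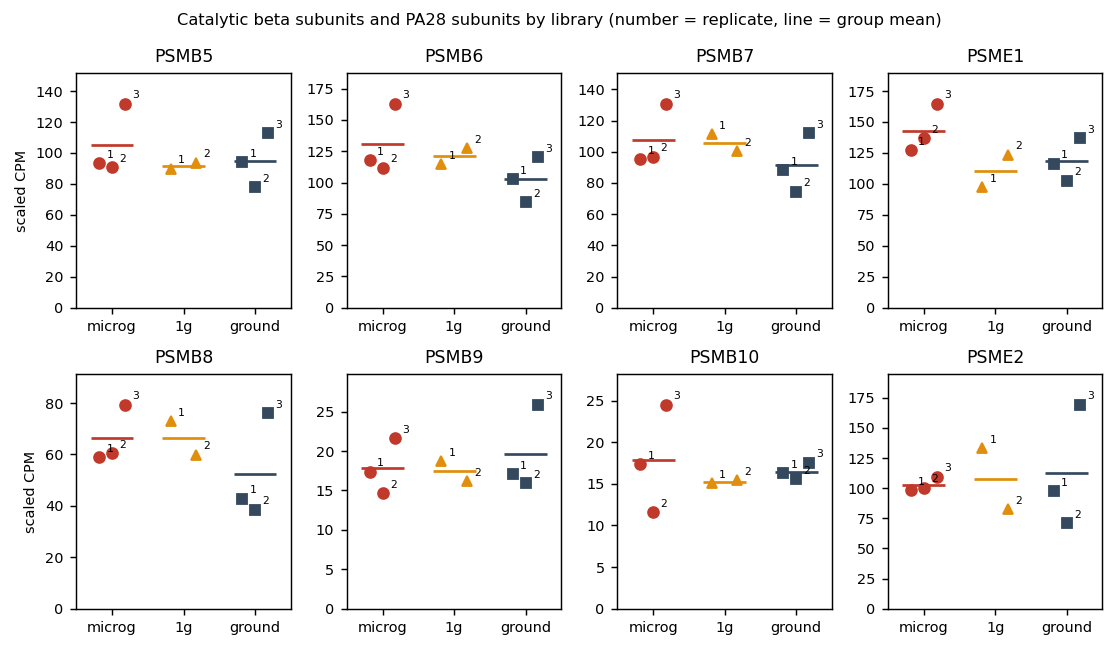
Scaled CPM (vertical axis, from 0) of the catalytic beta subunits, their immunoproteasome counterparts and the PA28 subunits by group; points are libraries numbered by replicate and lines are group means. Space_microg replicate 3 is the highest point for PSMB5 (132 CPM), PSMB6 (163 CPM), PSMB7 (131 CPM), PSMB8, PSMB10 and PSME1, and ground replicate 3 for PSMB9 and PSME2 (169 CPM).

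In the 19S cap, 5 of 6 ATPases (median 0.17) and 9 of 11 other subunits (median 0.10) were higher in space_microg than on the ground. PSMC1 had 111, 116 and 121 CPM in space_microg, 117 and 119 CPM in space_1g, and 94.2, 84.9 and 110.2 CPM on the ground. Every flight library was above every ground library, weightless or not, with ground replicate 3 close below. The difference from the ground was 0.27 ± 0.14 in space_microg (limma adjusted p = 0.866) and 0.29 ± 0.16 in space_1g (adjusted p = 1.00). For PSMC1, 47.7% of coding bases lie opposite another gene's exons and no source used here says whether counting used strand, so reads of both genes may not be told apart. The annotation also holds 13 pseudogenes of PSMC1.

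PSMD7, the lid partner of the deubiquitinase PSMD14, had 115, 112 and 122 CPM in space_microg, 99.7 and 93.0 CPM in space_1g, and 96.2, 87.5 and 102 CPM on the ground. Its weightless libraries were the 3 highest and the 1 g libraries lay among those of the ground. The difference was 0.29 ± 0.13 from the ground and 0.27 ± 0.14 from space_1g, with limma adjusted p of 0.866 and 0.912, and 30.0% of its coding bases lie opposite another gene. PSMD14 itself, which cuts ubiquitin chains off substrates, had 108, 114 and 119 CPM in space_microg, 107 and 102 CPM in space_1g, and 94.8, 71.0 and 119 CPM on the ground. Only ground replicates 1 and 2 stood below the flight libraries. PSMD4, a ubiquitin receptor of the cap, differed by 0.10 ± 0.18 and the scaffold PSMD1 by 0.10 ± 0.15 between space_microg and the ground, both less than their error.

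All 3 chaperones of the cap were higher in space_microg than on the ground (median 0.19), as were 3 of 4 chaperones of the core (median 0.15). PSMD5, which holds ATPases before the cap closes, had 81.6, 79.4 and 83.4 CPM in space_microg, 77.8 and 78.7 CPM in space_1g, and 72.1, 75.4 and 67.2 CPM on the ground. The 3 groups did not overlap and kept the order weightless, 1 g, ground, over a range of 1.24-fold between the highest and the lowest library. PSMD9 had 37.9, 36.6 and 44.5 CPM in space_microg, 37.2 and 38.2 CPM in space_1g, and 28.1, 27.8 and 38.5 CPM on the ground, where replicate 3 was level with the flight libraries. Its difference from the ground was 0.34 ± 0.18 in space_microg and 0.27 ± 0.20 in space_1g (limma adjusted p = 0.866 and 1.00), and 68.3% of its coding bases are shared with same-strand genes. PSMG1, a chaperone of the alpha ring, had 43.6, 46.8 and 49.7 CPM in space_microg, 36.7 and 37.5 CPM in space_1g, and 42.2, 35.5 and 39.1 CPM on the ground. The weightless libraries were the 3 highest, and the difference was 0.26 ± 0.14 from the ground and 0.32 ± 0.16 from space_1g (adjusted p = 0.866 and 0.912).

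These counts depended on single libraries. Without ground replicate 2, 27 of 46 members were higher in space_microg than on the ground (58.7%, against 48.3% of all genes) and the median was 0.05. Without space_microg replicate 3 it was 33 of 46 (against 48% of all genes) with a median of 0.10. Without ground replicate 3 it was 45 of 46 (against 49.3% of all genes) with a median of 0.28. Without both libraries that stood apart, 45 of 46 members were higher (against 49.3% of all genes) with a median of 0.28. With the GC and length trend removed, 36 of 46 were higher (against 46.2% of all genes) with a median of 0.10.

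**Figure D3:**
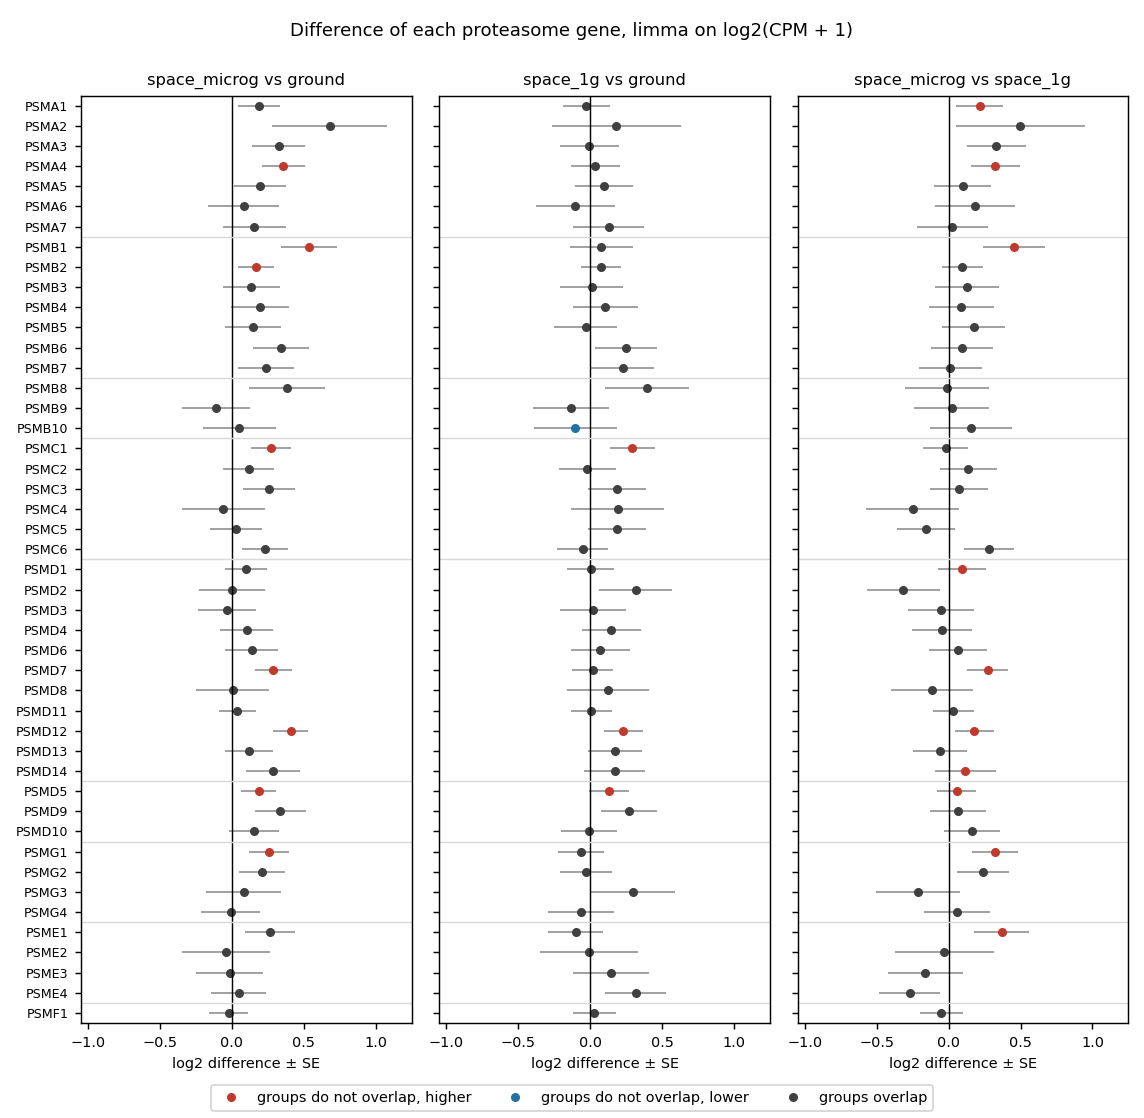
Log2 difference of each of the 46 genes (points) with its standard error (lines) from limma in the 3 comparisons, the first-named group minus the second; colour marks genes whose groups do not overlap. Such genes number 8 in space_microg against ground, 3 higher and 1 lower in space_1g against ground, and 10 in space_microg against space_1g.

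Flight at 1 g was set against the ground to see flight without weightlessness, and no member passed the test. Of 46 members 32 were higher in space_1g (69.6%, against 51.2% of all genes), with a median of 0.08, against 0.01 over all genes. Limma called 0 members and 0% of all genes, with 0 members and 249 genes at an unadjusted p under 0.05 (0.72% of all genes higher and 0.826% lower), and edgeR called 0 genes with 227 unadjusted. The groups did not overlap for 3 members that were higher, PSMD5, PSMC1 and PSMD12 (6.52%, against 4.94% of all genes), and for 1 that was lower, PSMB10 (2.17%, against 5.73%), shares near those of all genes. The reads of PSMB10 are uncertain, as 59.95% of its coding bases are shared with a same-strand gene. All 11 non-ATPase subunits of the cap were higher, by 0.0025 to 0.31 (median 0.12). Leaving out each library in turn brought that median as low as -0.04. Also higher were 6 of 7 constitutive beta subunits (median 0.08), 4 of 7 alpha subunits (median 0.03) and 1 of 4 core chaperones (median -0.05). PSME4 (PA200), a nuclear activator, had 269 and 195 CPM in space_1g, against 177, 166 and 213 CPM on the ground, a difference of 0.32 ± 0.21. PSMD2 differed by 0.31 ± 0.26 (both limma adjusted p = 1.00). In both genes space_1g replicate 1 was the highest of all 8 libraries and replicate 2 lay within the ground range. Without ground replicate 2, 17 of 46 members were higher in space_1g and the median was -0.04, and without ground replicate 3 it was 39 of 46 with a median of 0.16. With the replicate number as a block it was 41 of 46 with a median of 0.15, against 0.15 in space_microg under that block, and with the GC and length trend removed 31 of 46 with a median of 0.10.

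Weightless and centrifuged flight were compared to separate gravity from the other conditions of flight. Of 46 members 32 were higher in space_microg than in space_1g (69.6%, against 46.6% of all genes), with a median of 0.08, against -0.03 over all genes. Limma called 0 members and 0% of all genes, with 0 members and 212 genes at an unadjusted p under 0.05 (0.696% of all genes higher and 0.621% lower), and edgeR called 0 genes with 221 unadjusted. The groups did not overlap for 10 members, all higher in space_microg (21.7%, against 7.24% of all genes), and for 0 that were lower (6.91%). They were PSMA1, PSMA4, PSMB1, PSMD1, PSMD5, PSMD7, PSMD12, PSMD14, PSME1 and PSMG1. For PSMA1, 91.0% of coding bases are shared with a read-through gene on the same strand, so its reads are uncertain. All 7 alpha subunits (median 0.22) and all 7 constitutive beta subunits (median 0.10) were higher, against 3 of 6 ATPases (median 0.03), 6 of 11 non-ATPase subunits (median 0.03) and 1 of 4 activators (median -0.10). PSMA3, an alpha subunit, had 76.9, 83.7 and 91.9 CPM in space_microg and 55.8 and 79.3 CPM in space_1g, where only replicate 1 stood clearly below, and differed by 0.33 ± 0.21 (limma adjusted p = 0.912). With the GC and length trend removed, 23 of 46 members were higher and the median was 0.0018, the median of the alpha subunits was 0.06, and PSMA3 differed by -0.03. Without space_1g replicate 1 the alpha median was 0.08 and that of the activators 0.17. Without space_microg replicate 3 it was also 23 of 46, with a median of -0.0055. The 3 comparisons share libraries, so their counts are not independent of each other.

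The balance of core and cap differed between libraries. The 17 subunit genes of the cap summed to 1.77, 1.63 and 1.46 times the 14 constitutive genes of the core in space_microg, 2.02 and 1.66 times in space_1g, and 1.65, 1.78 and 1.90 times on the ground. The lowest ratio was in space_microg replicate 3 and the highest in the libraries that stood apart, and all groups overlapped. The share of the variance between genes explained by GC and length was 53.4% for the deviations of space_microg replicate 2, 12.0% in space_microg replicate 3, 14.3% in space_1g replicate 1, 21.3% in ground replicate 3 and 2.35% to 9.19% in the other 4, and their part in this ratio was not tested.

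Per length of principal transcript, the core genes covered a wide range although each ring position is filled by its own subunit. PSMB4 had a median of 168 CPM per kb over the 8 libraries (131 to 227), PSMA7 158 (110.2 to 199), PSMB6 136 (99.0 to 191) and PSMB1 126 (93.3 to 191). PSMA2 had 2.98 CPM per kb (1.26 to 4.76), PSMA6 11.9 (8.56 to 15.2) and PSMA1 26.1 (22.8 to 30.6), the alpha subunits that share 89.7% to 100% of their coding bases with a read-through gene on the same strand. PSMA4 and PSMA5, at 28.2 and 23.5 CPM per kb, have principal transcripts of 4.41 and 3.73 kb. Among the cutting subunits PSMB5 had 72.3 CPM per kb and PSMB7 101, and their immunoproteasome counterparts PSMB8 had 53.6, PSMB9 22.0 and PSMB10 13.1, the last with 59.95% of coding bases shared.

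**Figure D4:**
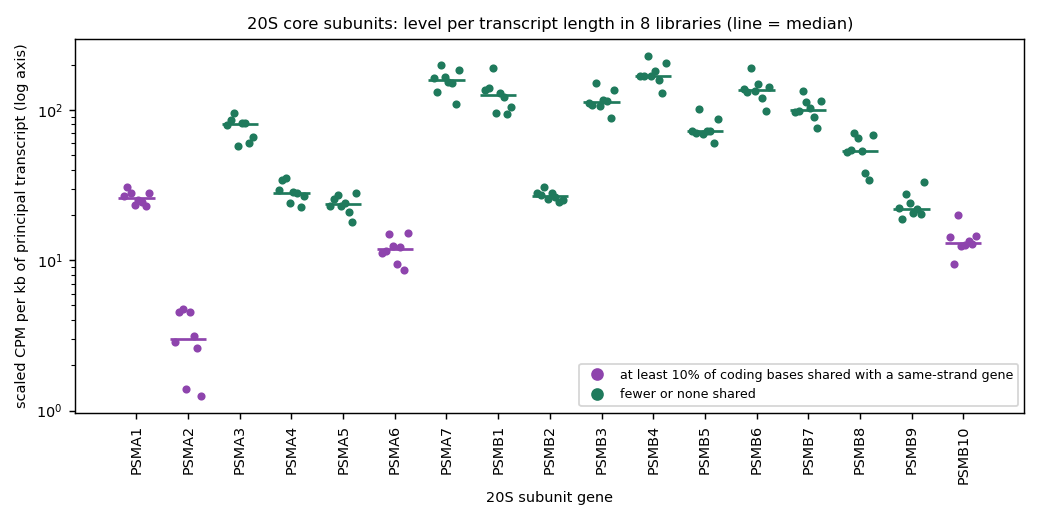
Level of each 20S core gene in scaled CPM per kb of principal transcript (vertical log axis) in the 8 libraries (points) with the median (line). The genes that share at least 10% of their coding bases with a same-strand gene (PSMA1, PSMA2, PSMA6 and PSMB10) lie in the lower part of the range, with PSMA2 at 2.98 CPM per kb and PSMB4 highest at 168. Genes that share no coding bases lie there too, such as PSMB9 (22.0), PSMA5 (23.5), PSMB2 (26.8) and PSMA4 (28.2), near PSMA1 (26.1).

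No common direction could be read for the immunoproteasome subunits, and for PSMB9 and PSMB10 the differences from the ground were within their error. PSMB8 (LMP7), which replaces PSMB5, had 58.9, 60.6 and 79.3 CPM in space_microg, 72.9 and 59.96 CPM in space_1g, and 42.7, 38.6 and 76.1 CPM on the ground. Ground replicates 1 and 2 stood below every flight library, and ground replicate 3 was close to the highest of them. The difference from the ground was 0.38 ± 0.26 in space_microg and 0.39 ± 0.29 in space_1g (limma adjusted p = 0.866 and 1.00). PSMB9 (LMP2), which replaces PSMB6, had 17.4, 14.6 and 21.6 CPM in space_microg, 18.7 and 16.2 CPM in space_1g, and 17.1, 15.9 and 25.9 CPM on the ground. PSMB10 (MECL-1), which replaces PSMB7, had 17.4, 11.6 and 24.5 CPM in space_microg, 15.1 and 15.4 CPM in space_1g, and 16.3, 15.5 and 17.5 CPM on the ground. PSMB9 was highest in ground replicate 3 and PSMB10 in space_microg replicate 3, with space_microg replicate 2 the lowest library for both. Space_microg differed from the ground by -0.11 ± 0.24 for PSMB9 and 0.05 ± 0.26 for PSMB10, and space_1g by -0.13 ± 0.26 and -0.10 ± 0.29 for the same genes.

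The ratio of PSMB8 to PSMB5 was 0.631, 0.666 and 0.602 in space_microg, 0.811 and 0.639 in space_1g, and 0.454, 0.495 and 0.675 on the ground, so ground replicates 1 and 2 were the lowest. PSMB9 to PSMB6 ran the other way, at 0.148, 0.131 and 0.133 in space_microg, 0.163 and 0.127 in space_1g, and 0.166, 0.189 and 0.215 on the ground. Every ground library was above every flight library in that ratio, which was not tested by itself. PSMB10 to PSMB7 overlapped between groups, and PSMB10 shares 59.95% of its coding bases with a same-strand gene. An average over the pairs therefore merges opposite directions. Averaged over the 3 exchangeable pairs as log2 of immunoproteasome over constitutive subunit, the balance was -2.01 ± 0.11 in space_microg (SD, n = 3), -1.97 ± 0.12 in space_1g (SD, n = 2) and -1.87 ± 0.12 on the ground (SD, n = 3). By exact two-sided permutation tests, space_microg and ground differed by -0.13 (p = 0.3), space_1g and ground by -0.10 (p = 0.4) and space_microg and space_1g by -0.04 (p = 0.8). The smallest p these designs allow is 0.1. The ranges of the balance in the 3 groups overlapped.

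The PA28 activator, a ring of PSME1 and PSME2 subunits that opens the core without ATP and is induced by interferon, split between its subunits. PSME1 had 127, 137 and 165 CPM in space_microg, 97.6 and 124 CPM in space_1g, and 116, 103 and 137 CPM on the ground. PSME2 had 98.4, 101 and 109.7 CPM in space_microg, 133 and 82.6 CPM in space_1g, and 97.5, 71.2 and 169 CPM on the ground. Space_1g replicate 1 was the lowest library for PSME1 and the second highest for PSME2, and ground replicate 3 was the highest for PSME2. For PSME1 the difference was 0.27 ± 0.17 between space_microg and ground, -0.10 ± 0.19 between space_1g and ground and 0.37 ± 0.19 between space_microg and space_1g (limma adjusted p = 0.866, 1.00 and 0.912). For PSME2 it was -0.04 ± 0.31, -0.01 ± 0.34 and -0.03 ± 0.34. PSME3, the nuclear PA28 gamma, differed by -0.02 ± 0.24 and the inhibitor PSMF1 (PI31) by -0.02 ± 0.13 between space_microg and ground.

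TAP1, the peptide transporter whose gene lies beside PSMB9 and that is a standard interferon target, shows what the 2 libraries that stood apart did at these loci. It had 144, 92.4 and 123 CPM in space_microg, 307 and 94.7 CPM in space_1g, and 90.4, 70.4 and 376 CPM on the ground. Space_1g replicate 1 and ground replicate 3 were far above the other 6 libraries. PSME2 was also highest in these libraries. PSMB8, PSMB10 and PSME1 stayed within or below the range of the other 6 in both, and PSMB9 lay within it in space_1g replicate 1 and above it in ground replicate 3. The interferon list gave 1 of 10 genes higher in space_microg than on the ground (median -0.34), 7 of 10 in space_1g against ground (median 0.25) and 0 of 10 in space_microg against space_1g (median -0.58), with 0 called by limma. Its smallest p in space_microg against ground belonged to IRF9, at -0.70 ± 0.52, and IRF1, at -0.41 ± 0.50.

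**Figure D5:**
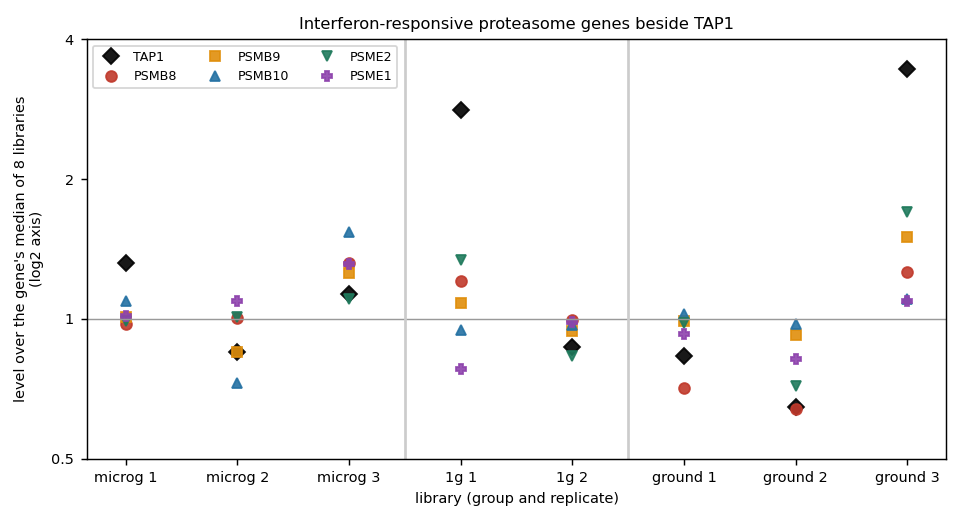
Level of TAP1 and of the interferon-responsive proteasome genes divided by each gene's median over the 8 libraries (vertical axis, log2 spacing), by library. TAP1 (307 and 376 CPM) is far above its median in space_1g replicate 1 and ground replicate 3, where PSME2 (133 and 169 CPM) is the highest of the proteasome genes.

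The promoters of PSMB8, PSMB9, TAP1, PSME1 and PSME2 are shown because all are known interferon targets, and the first 2 encode immunoproteasome subunits, TAP1 the transporter and the last 2 PA28. Capitals mark the interferon-stimulated response element, searched as GAAA, any 2 bases and GAAA, and the gamma-activated sequence, searched as TTCNNNGAA, each on both strands. The first was in 7 of 49 member windows (14.3%), against 3.57% of all windows, in PSMA4, PSMB4, PSMB8, PSMB10, PSME1, PSME2 and PSMG4. The second was in 7 member windows (14.3%), against 7.66% of all windows. Windows are RefSeq's on GRCh38.p14, 5′ to 3′: PSMB8 chr6:32843998-32844297 on the minus strand, PSMB9 chr6:32853942-32854241 on the plus strand, TAP1 chr6:32853655-32853954 on the minus strand, PSME1 chr14:24135944-24136243 on the plus strand and PSME2 chr14:24146561-24146860 on the minus strand.
PSMB8: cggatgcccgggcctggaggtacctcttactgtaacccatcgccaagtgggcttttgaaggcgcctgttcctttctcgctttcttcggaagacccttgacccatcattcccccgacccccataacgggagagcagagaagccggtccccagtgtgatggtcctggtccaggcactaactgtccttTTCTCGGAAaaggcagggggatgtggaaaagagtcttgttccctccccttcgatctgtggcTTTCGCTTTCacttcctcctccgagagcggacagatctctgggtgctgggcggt
PSMB9: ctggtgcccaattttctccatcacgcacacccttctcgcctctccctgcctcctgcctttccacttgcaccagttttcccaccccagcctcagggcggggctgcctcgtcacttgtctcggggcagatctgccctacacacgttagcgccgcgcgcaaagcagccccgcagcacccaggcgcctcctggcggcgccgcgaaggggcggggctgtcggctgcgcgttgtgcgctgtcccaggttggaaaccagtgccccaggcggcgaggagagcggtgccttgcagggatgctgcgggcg
TAP1: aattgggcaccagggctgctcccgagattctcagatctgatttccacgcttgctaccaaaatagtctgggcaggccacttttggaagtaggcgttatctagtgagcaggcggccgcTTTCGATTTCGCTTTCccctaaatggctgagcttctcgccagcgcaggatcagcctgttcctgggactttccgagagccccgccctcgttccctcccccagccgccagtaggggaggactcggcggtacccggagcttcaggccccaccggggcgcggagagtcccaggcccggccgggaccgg
PSME1: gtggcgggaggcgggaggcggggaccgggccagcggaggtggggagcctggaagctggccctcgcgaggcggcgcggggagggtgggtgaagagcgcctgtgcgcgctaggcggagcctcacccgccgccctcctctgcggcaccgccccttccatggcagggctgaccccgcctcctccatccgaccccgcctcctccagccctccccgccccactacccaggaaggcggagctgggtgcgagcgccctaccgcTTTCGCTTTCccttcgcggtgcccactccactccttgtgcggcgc
PSME2: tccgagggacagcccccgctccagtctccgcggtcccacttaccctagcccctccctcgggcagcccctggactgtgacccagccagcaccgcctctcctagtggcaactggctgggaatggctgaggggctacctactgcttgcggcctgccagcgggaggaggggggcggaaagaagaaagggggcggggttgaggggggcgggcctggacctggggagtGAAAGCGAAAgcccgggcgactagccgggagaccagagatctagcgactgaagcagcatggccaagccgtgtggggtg
The starts of PSMB9 and TAP1 lie 488 bases apart on opposite strands and their windows share 13 bases. The TAP1 window shown holds overlapping matches to the first motif, whereas the PSMB9 window holds neither motif. TAP1 and PSMB8 each have another window, at chr6:32852712-32853011 and chr6:32844630-32844929. That of TAP1 holds the second motif only, and that of PSMB8 holds neither. PSME2 carries GAAAGCGAAA before its start and PSME1 the same letters on the other strand, as TTTCGCTTTC, after its start. No match in a window says only that these letters are not in it.

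Genes that work with the proteasome but carry other symbols gave a mixed picture. Of 13 measured partners, such as the maturation factor POMP and the deubiquitinases UCHL5 and USP14, 9 were higher in space_microg than on the ground (median 0.17), with 0 called. SHFM1 (DSS1), a small subunit of the cap, had 18.97, 19.5 and 26.7 CPM in space_microg, 13.2 and 13.97 CPM in space_1g, and 18.4, 13.8 and 11.5 CPM on the ground. The weightless libraries were the 3 highest, and the difference was 0.55 ± 0.22 from the ground and 0.63 ± 0.25 from space_1g (limma adjusted p = 0.866 and 0.912). UCHL5 differed by 0.58 ± 0.28 between space_microg and ground. ADRM1, the ubiquitin receptor of the cap that has no PSM symbol, followed the libraries that stood apart, with 112, 62.4 and 107 CPM in space_microg, 165 and 89.6 CPM in space_1g, and 84.2, 68.1 and 188 CPM on the ground. ADRM1 was named after its values were seen.

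Of 11 genes for transcription of proteasome genes and delivery of substrates, 4 were higher in space_microg than on the ground (median -0.04). The transcription factor NFE2L1 had 322, 253 and 286 CPM in space_microg, 365 and 271 CPM in space_1g, and 329, 301 and 504 CPM on the ground, highest in ground replicate 3, and differed by -0.37 ± 0.23 between space_microg and ground (limma adjusted p = 0.866). UBQLN4, a shuttle for ubiquitylated proteins, differed by -0.26 ± 0.18. RPS27A, which encodes ubiquitin fused to a ribosomal protein, differed by 0.47 ± 0.19, and the polyubiquitin gene UBB by -0.04 ± 0.23. Of 13 genes of class I presentation 5 were higher (median -0.06), with B2M, the light chain of class I molecules, at 0.45 ± 0.21 and HLA-E at 0.21 ± 0.16.

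Marker genes of cell type and stress were read in the same libraries, and limma called 0 of them. Of 10 endothelial markers, 1 was higher in space_microg than on the ground (median -0.39), with TEK at -0.63 ± 0.19 and KDR at -0.49 ± 0.20, and 1 of 10 in space_1g than on the ground (median -0.45). Their sum was 917 to 1300 CPM in space_microg, 941 and 1054 CPM in space_1g, and 1209 to 1615 CPM on the ground. Of 8 p53 targets 7 were higher (median 0.18), with CCNG1 at 0.77 ± 0.18 and ZMAT3 at 0.69 ± 0.19, and 8 of 8 in space_1g than on the ground (median 0.64). Their sum was 2656 to 3176 CPM in space_microg, 2207 and 6375 CPM in space_1g, and 1430 to 4946 CPM on the ground. Fibroblast genes were higher in 1 of 3 (median -0.14), smooth muscle and pericyte genes in 1 of 2 (median 0.10), and CD14 differed by 0.48 ± 0.27. The part of these genes in the proteasome values was not tested.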

How the data were processed

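Per the labels' protocols, total RNA was depleted of ribosomal RNA and made into libraries with a stranded kit. The submitters' processing notes list edgeR, featureCounts, STAR 2.5.3, FastQC and CASAVA 1.8.2 and the builds GRCh38 and hg38, with no roles. The deposited signal holds a value for each gene that the labels call CPM. They were whole multiples of the value of 1 read in each library, for 100% of values (tolerance 1e-06 read), so reads could be recovered; for space_microg replicate 1 the smallest value was 3 reads. A count of 0 allows up to 3 reads, 0.0855 to 0.12 CPM, counting error only. Pairs of libraries within a group differed beyond counting noise (chi-square per degree of freedom 19.4 to 206), and each was kept as a replicate. Such differences do not show that the libraries came from separate cultures.

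Values were analysed as log2(CPM + 1) for the 16103 genes that reached 1 CPM in 2 or more libraries; 50 genes and 0 members did not. All 8 libraries entered a single limma 3.58.1 fit (lmFit and eBayes with a mean trend, R 4.3.3, two-sided, Benjamini-Hochberg at 0.05). It was also run on simulated counts with planted changes. In these no library stood apart, so they do not measure the power of the fit here. Differences are on that scale and understate low genes. EdgeR 4.0.16 was run on the recovered reads. The immunoproteasome balance used exact permutation tests.

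Members and lists were chosen with earlier results of these data known. Members named with full statistics were the 6 with the smallest p per comparison and the catalytic, immunoproteasome and PA28 subunits, and for other lists the 2 genes with the smallest p in space_microg against ground. Other members described with values were chosen after their values were seen. GENCODE v29 (GRCh38) gave gene positions for 13899 of 16153 symbols; the principal transcript is the longest of the best rank. Promoters are RefSeq's. The 18 alternatives changed the pseudocount (0.25 or 4), filter, scaling, test, replicate block, GC and length trend, or the libraries used.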

Additional observations from a re-analysis of the deposited data

How the results depend on the processing

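In each comparison 0 members were called under all 18 alternatives. The median member was higher than 0 under all 18 in space_microg against ground (0.05 to 0.28), under 17 in space_1g against ground (-0.04 without ground replicate 2, 0.19 without both libraries that stand apart, 0.17 with the replicate block and the GC and length trend removed, where space_microg against ground gave 0.10), and in space_microg against space_1g it was -0.093 with the replicate block and the GC and length trend removed (14 of 46 members higher) and -0.02 with the block alone (22 of 46). Other values below are log2 differences of genes that limma did not call, whose sign changed; the causes were not tested.

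No label says whether the replicate numbers pair the libraries. Same-numbered libraries deviated from their group means with correlations of -0.68 to 0.68. The 2 space_1g libraries necessarily deviate in opposite directions, so these correlations cannot settle whether the numbers pair. With the replicate block, space_1g against ground gave 0.12 for PSMB5, 0.040 for PSMB9, 0.043 for PSMB10, 0.0050 for PSME1 and 0.18 for PSME2, and space_microg against space_1g gave -0.052 for PSMB6, -0.14 for PSMB7 and -0.15 for PSMB9. With the replicate block and the GC and length trend removed, space_microg against ground gave 0.0076 for PSME2, space_1g against ground gave 0.086 for PSMB5, 0.040 for PSMB9 and 0.14 for PSME2, and space_microg against space_1g gave -0.12 for PSMA3, -0.021 for PSMB6, -0.20 for PSMB7 and -0.18 for PSMB9. The block changed no call of a member.

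With the GC and length trend removed alone, PSME2 was 0.0076 in space_microg against ground, and space_microg against space_1g gave -0.033 for PSMA3, -0.043 for PSMB7, 0.068 for PSMB8, -0.013 for PSMB9 and 0.023 for PSME2. Scaling by library total alone gave 0.0097 for PSME2 in space_1g against ground and -0.0015 for PSMB7 in space_microg against space_1g, where edgeR gave 0.018 for PSMB8. Without both libraries that stand apart, space_microg against ground gave 0.095 for PSMB9 and 0.30 for PSME2, space_1g against ground gave 0.13 for PSMB5 and 0.17 for PSME1, and space_microg against space_1g gave 0.13 for PSMB8, 0.31 for PSME2 and 0.046 for the immunoproteasome balance.

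Leaving out each library in turn, with a lone space_1g library assumed to vary like the others, gave these ranges. In space_microg against ground they were -0.027 to 0.27 for PSMB5, -0.25 to 0.095 for PSMB9, -0.20 to 0.31 for PSMB10 and -0.32 to 0.30 for PSME2. In space_1g against ground they were -0.16 to 0.099 for PSMB5, -0.26 to 0.074 for PSMB9, -0.27 to 0.067 for PSME1 and -0.35 to 0.33 for PSME2. In space_microg against space_1g they were -0.074 to 0.19 for PSMB6, -0.14 to 0.092 for PSMB7, -0.15 to 0.13 for PSMB8, -0.12 to 0.15 for PSMB9, -0.094 to 0.42 for PSMB10, -0.37 to 0.31 for PSME2 and -0.12 to 0.046 for the balance. Between 2 and 3 libraries a group limit what could be called, and PSMA2, with as few as 61 reads, has the largest counting error of the members.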
